A study of Homo sapiens with 16 samples.

Results

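The 10 genes described here encode transcription factors of the AP-1 group (FOS, FOSB, FOSL1, FOSL2, JUN, JUNB, JUND and ATF3) together with EGR1 and MYC. They were taken by gene symbol, with earlier results of these data known. Each matched 1 of the 58735 gene rows in each of the 2 count tables. Messenger RNA was sequenced from MDA-MB-231 and SUM159PT, both established human lines of triple-negative breast cancer, in which hormone receptors are missing and HER2 is not amplified. All cells were wild type and were transfected with Lipofectamine2000, either with an siRNA against YES1 (siYES1), a tyrosine kinase of the SRC family, or with an siRNA against firefly luciferase (siNS), a gene that human cells lack. RNA was taken at 48 h, with 4 libraries in each of the 4 groups and 16 in all. An siRNA lowers a transcript without removing the gene, and only 1 siRNA label against YES1 is given, so effects of the siRNA on other transcripts cannot be told apart from effects of lower YES1. The design text describes the replicates as technical, so p-values measure only the spread between such samples.

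AP-1 is a dimer of basic leucine zipper proteins. JUN proteins pair with each other or with FOS proteins, whereas FOS proteins need a JUN partner. FOS and FOSB carry strong activation domains, while FOSL1 (FRA-1) and FOSL2 (FRA-2) lack the corresponding region. FOS and EGR1 are the classic immediate early genes: their transcripts appear within minutes of a growth factor signal through the RAS and ERK kinases, by way of serum response factor at CArG boxes, and decay quickly. FOSL1 is longer lived and is known as the prominent FOS protein of mesenchymal, triple-negative breast cancer cells. MYC pairs with MAX at E-boxes and drives growth and ribosome production. SRC family kinases lie upstream of the same RAS and ERK signals.

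Promoter letters are shown for EGR1 and JUND, the members with a match to any of 5 motifs in the 250 bases before the RefSeq start, both strands searched. RefSeq entries of GRCh38.p14 were matched for 8 of the 10 genes; FOSL1 and MYC had no entry in the table used. Capitals mark the matches. EGR1 lies at chr5:138465229-138465478 on the plus strand and holds CArG boxes at bases -105 to -96 and -83 to -74 before the start, and GCGNGGGCG, the motif EGR1 itself binds, at -198 to -190. JUND lies at chr19:18281623-18281872 on the minus strand and holds TGACGTCA, the cyclic AMP response element, at -200 to -193.
EGR1: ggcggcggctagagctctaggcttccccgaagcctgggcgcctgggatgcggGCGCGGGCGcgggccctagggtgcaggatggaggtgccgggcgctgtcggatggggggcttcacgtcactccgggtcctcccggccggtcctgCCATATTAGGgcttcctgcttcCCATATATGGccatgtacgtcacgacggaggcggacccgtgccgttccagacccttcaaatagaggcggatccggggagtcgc
JUND: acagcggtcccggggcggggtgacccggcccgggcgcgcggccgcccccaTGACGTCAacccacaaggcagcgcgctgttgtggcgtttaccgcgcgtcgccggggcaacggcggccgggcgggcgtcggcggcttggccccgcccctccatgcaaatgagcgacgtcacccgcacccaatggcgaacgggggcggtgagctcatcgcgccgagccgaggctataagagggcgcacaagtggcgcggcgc
Of 35116 RefSeq promoters of this length, 1.159% held a CArG box, 8.415% GCGNGGGCG and 1.646% TGACGTCA. The AP-1 site TGANTCA, held by 6.573% of promoters, and the E-box CACGTG, held by 6.345%, matched in none of the 8. The motifs do not overlap each other in these windows, and a match describes letters only. FOS had no CArG match in its window, but bases further upstream were not searched, so a box there would be missed.

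Depth ran from 15863961 to 21158617 counts per library in MDA-MB-231 and from 15680459 to 23451253 in SUM159PT. Levels are given as CPM, counts scaled to library size with TMM factors set within a line, and FPKM is that CPM per kilobase of exon. YES1 itself fell in both lines, from 63.2 ± 6.16 to 13.75 ± 0.82 CPM (mean ± SD, n = 4) in MDA-MB-231 and from 134 ± 23.8 to 17.2 ± 1.80 CPM in SUM159PT. VIM, CD44 and EGFR, checked as genes present in such triple-negative lines, were at 231 CPM or more in every library. ESR1 stayed at 1.34 CPM or less and PGR at 0.12 or less. ERBB2, which encodes HER2, was detected throughout, at 46.9 to 126 CPM. Column names in the SUM159PT table begin with a code that could mean another breast cancer line, and the sample titles are the source of the name used. Of 5 fibroblast markers, 4 were detected in SUM159PT, with LUM at 0 counts, and their sum was 1706 to 1969 CPM with siNS and 637 to 741 CPM with siYES1; in MDA-MB-231 the sum was 62.6 to 74.0 and 26.1 to 31.8 CPM. Most of the sum in SUM159PT was COL1A1, at 1544 to 1782 and 567 to 668 CPM, while DCN was at 11.5 to 19.6 CPM with siNS and 17.0 to 22.9 CPM with siYES1. Leukocyte markers summed to 10.1 CPM or less, most of it CD14, with CD3E at 1 count or fewer in every library, and 3 endothelial markers to 9.25 CPM or less, with CDH5 at 4 counts or fewer. Both sums were lower with siYES1 in each line, and the part of these markers in the results was not tested. Scaling factors also separated the groups, at 1.03 to 1.115 with siNS and 0.94 to 0.96 with siYES1 in SUM159PT and at 1.00 to 1.04 and 0.98 to 0.99 in MDA-MB-231. In bulk RNA, fewer cells that express a gene and less RNA per cell cannot be told apart.

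The question across these 10 genes was which of them changed with siYES1 in each line. In SUM159PT the immediate early genes EGR1 and FOS fell from 34.9 to 6.95 and from 17.2 to 4.04 CPM, FOSB fell by less, and FOSL1, FOSL2, JUN, ATF3 and MYC rose. In MDA-MB-231 JUND, JUN and ATF3 fell and FOSL1 alone rose, and neither EGR1 nor FOS was called. FOSL1 was the only member called in the same direction in both lines. All 10 genes passed the filter on low counts in both lines. A gene was called at an edgeR adjusted p under 0.05.

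In MDA-MB-231, 1 member rose and 3 fell, while 6 were not called; their median log2 fold change was -0.21, against 0.00 over all 14319 tested genes. Of all tested genes 52.4% were called, 24.9% higher and 27.5% lower, so 4 of 10 is near that background. For 4 members no siYES1 library lay within the range of siNS, as for 47.1% of all genes. In SUM159PT 5 members rose and 3 fell, while 2 were not called; the median was 0.27, against -0.03 over 14469 genes. There 36.8% of all genes were called, 17.7% higher and 19% lower, and the groups did not overlap for 6 members, as for 36.8% of all genes. With total counts in place of TMM scaling, the calls in SUM159PT split into 1394 higher and 4173 lower in place of 2566 and 2755, and the median of all genes was -0.20.

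**Figure D1:**
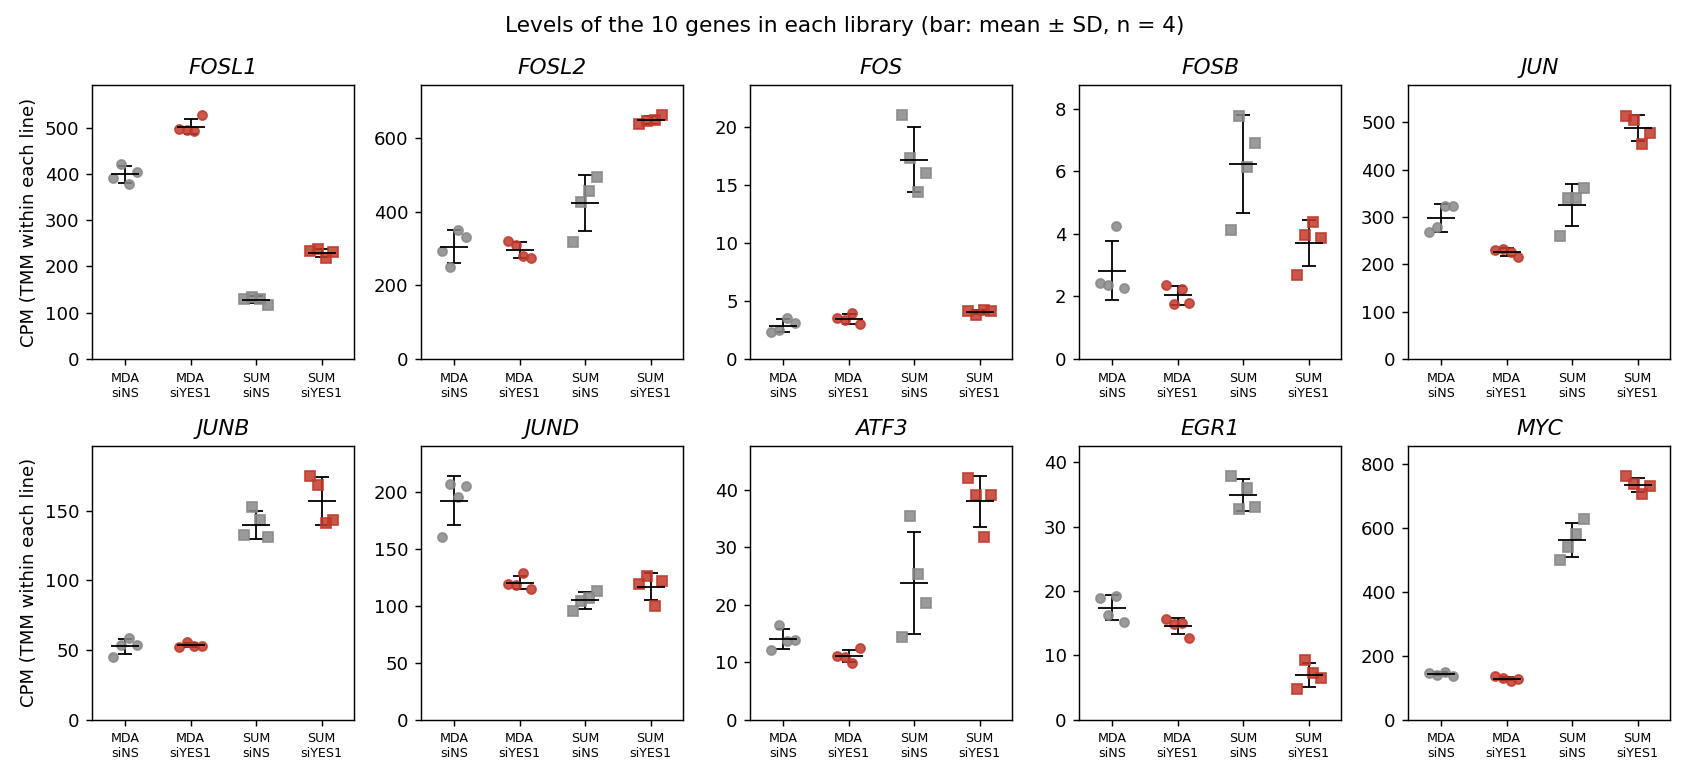
Level of each of the 10 genes in CPM (vertical axis, linear and starting at 0, scaled for each gene) in every library; points are libraries and bars the mean ± SD of 4. EGR1 and FOS stand far lower with siYES1 in SUM159PT, and FOSL1 stands higher with siYES1 in both lines.

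FOS, the founding FOS family gene (ENSG00000170345, GRCh38 chromosome 14, 75278774 to 75282230, plus strand), fell in SUM159PT and was not called in MDA-MB-231. In SUM159PT the siNS libraries 1 to 4 held 21.0, 17.3, 14.4 and 15.97 CPM and the siYES1 libraries 4.12, 3.75, 4.18 and 4.12 CPM. Every siYES1 library lay far below every siNS library. Its change was -2.08 ± 0.16 on the log2 scale (SE; edgeR adjusted p = 1.12e-06), larger in size than that of 97.6% of tested genes. In MDA-MB-231 FOS was low, at 2.33, 2.48, 3.49 and 3.14 CPM with siNS and 3.498, 3.32, 4.00 and 3.03 CPM with siYES1, which is 47 to 64 counts per library. These groups overlapped, and the log2 fold change was 0.28 ± 0.19 (edgeR adjusted p = 0.223).

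FOSB, its closest relative (ENSG00000125740, chromosome 19, 45467995 to 45475179, plus strand), was low in both lines. In SUM159PT it was at 4.12, 7.75, 6.14 and 6.91 CPM with siNS and 2.67, 3.97, 4.39 and 3.85 CPM with siYES1. The highest siYES1 library overlapped the lowest siNS library. It fell by 0.74 ± 0.24 on the log2 scale (edgeR adjusted p = 0.0303), a call that was lost without any of 6 of the 8 libraries in turn: siNS replicates 2, 3 or 4 or siYES1 replicates 1, 2 or 4 (adjusted p up to 0.09). In MDA-MB-231 the siNS libraries held 2.42, 2.38, 4.24 and 2.27 CPM and the siYES1 libraries 2.35, 1.75, 2.25 and 1.80 CPM, with replicate 3 of siNS above the rest. The change there was -0.46 ± 0.24 (edgeR adjusted p = 0.114), and -0.21 without that library (adjusted p = 0.459).

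FOSL1, which encodes FRA-1 (ENSG00000175592, chromosome 11, 65892049 to 65900573, minus strand), rose in both lines. In MDA-MB-231 the siNS libraries held 392.2, 422, 378 and 404 CPM and the siYES1 libraries 497, 494, 492 and 526.5 CPM. In SUM159PT they held 130.4, 135, 129.6 and 118 CPM with siNS and 233, 237, 217 and 232 CPM with siYES1. Neither line showed any overlap between its groups. On the log2 scale FOSL1 rose by 0.33 ± 0.07 in MDA-MB-231 (SE; edgeR adjusted p = 4.92e-04) and 0.84 ± 0.07 in SUM159PT (edgeR adjusted p = 2.19e-06). In size these changes were larger than those of 51.5% and 84.0% of tested genes, so the rise in MDA-MB-231 was of ordinary size.

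FOSL2, which encodes FRA-2 (ENSG00000075426, chromosome 2, 28392448 to 28417312, plus strand), rose in SUM159PT. It stood there at 317, 425, 456 and 492 CPM with siNS and at 638, 646, 648 and 661 CPM with siYES1. The siYES1 libraries were close together and all above siNS, whose replicate 1 was the lowest. On the log2 scale it rose by 0.62 ± 0.11 (edgeR adjusted p = 7.11e-04). In MDA-MB-231 the groups overlapped, at 249 to 350 CPM with siNS and 274 to 319 CPM with siYES1, with a change of -0.05 ± 0.09 (edgeR adjusted p = 0.706).

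JUN (ENSG00000177606, chromosome 1, 58780788 to 58784327, minus strand, 1 exon), the main partner of FOS proteins, moved in opposite directions. In MDA-MB-231 it was at 268, 278, 323 and 323 CPM with siNS and 230.4, 233, 226 and 215 CPM with siYES1. In SUM159PT the siNS libraries held 260.2, 339, 340.2 and 362 CPM and the siYES1 libraries 514, 504, 455 and 478 CPM. The groups were apart in each line, with siYES1 below siNS in MDA-MB-231 and above it in SUM159PT. JUN fell by 0.40 ± 0.08 on the log2 scale in MDA-MB-231 (edgeR adjusted p = 3.55e-04) and rose by 0.58 ± 0.10 in SUM159PT (edgeR adjusted p = 4.21e-04).

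JUND (ENSG00000130522, chromosome 19, 18279760 to 18281622, minus strand), the JUN protein that resting cells keep at steady levels, had the largest change among the members in MDA-MB-231. There it was at 161, 207, 196 and 206 CPM with siNS and 119, 119, 129 and 115 CPM with siYES1. No siYES1 library reached the lowest siNS library. It fell by 0.68 ± 0.08 on the log2 scale (edgeR adjusted p = 4.35e-06). In SUM159PT the groups overlapped, at 95.3 to 114 CPM with siNS and 100.5 to 126.5 CPM with siYES1, and the change of 0.16 ± 0.09 was not called (edgeR adjusted p = 0.187).

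JUNB (ENSG00000171223, chromosome 19, 12791496 to 12793315, plus strand, 1 exon), a JUN protein that can oppose JUN, was called in neither line. It ranged from 45.0 to 58.4 CPM with siNS and 52.1 to 55.8 CPM with siYES1 in MDA-MB-231, and from 131 to 152.5 and 141 to 175 CPM in SUM159PT. The log2 fold changes were 0.02 ± 0.09 (edgeR adjusted p = 0.83) and 0.16 ± 0.09 (edgeR adjusted p = 0.171). JUNB shares 259 exon bases with HOOK2 on the opposite strand, and HOOK2 held 188 to 422 counts per library. Under total-count scaling JUNB in both lines and JUND in SUM159PT had values just below 0, none of them called.

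ATF3 (ENSG00000162772, chromosome 1, 212565334 to 212620777, plus strand), a stress-induced factor that pairs with JUN proteins, also differed in direction. In MDA-MB-231 it was at 12.2, 16.5, 13.6 and 13.9 CPM with siNS and 11.1, 10.97, 9.88 and 12.5 CPM with siYES1, with 1 siYES1 library above the lowest of siNS. It fell by 0.34 ± 0.12 on the log2 scale (edgeR adjusted p = 0.0246). In SUM159PT the siNS libraries were spread widely, at 14.4, 35.4, 25.4 and 20.3 CPM, and the siYES1 libraries held 42.1, 39.1, 31.8 and 39.1 CPM. It rose there by 0.67 ± 0.21 (edgeR adjusted p = 0.0238), although siNS replicate 2 overlapped siYES1. Both calls are fragile: in MDA-MB-231 the call was lost without siNS replicate 2 or siYES1 replicate 1, 2 or 3 (adjusted p up to 0.0876) and in a joint fit of all 16 libraries (0.122), and in SUM159PT without siNS replicate 4 or siYES1 replicate 1, 2 or 4 (up to 0.0754) and with total counts (0.0602).

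EGR1 (ENSG00000120738, chromosome 5, 138465490 to 138469315, plus strand), the zinc finger factor with the CArG boxes, had the largest change of the 10. In SUM159PT it was at 37.9, 32.8, 35.9 and 33.0 CPM with siNS and 4.76, 9.29, 7.25 and 6.48 CPM with siYES1. The 2 groups were far apart, and siYES1 libraries held 89 to 171 counts against 554 to 784. It fell by 2.33 ± 0.17 on the log2 scale (edgeR adjusted p = 6.85e-07), a larger change than that of 98.1% of tested genes. In MDA-MB-231 it was at 18.9, 16.3, 19.3 and 15.2 CPM with siNS and 15.65, 14.8, 15.1 and 12.7 CPM with siYES1. These groups overlapped and the change of -0.26 ± 0.11 was not called (edgeR adjusted p = 0.0573), but it was called without siNS replicate 2 (0.0466) or 4 (0.0277) and with total counts (0.0309).

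MYC (ENSG00000136997, chromosome 8, 127735434 to 127741434, plus strand) rose in SUM159PT. It was there at 501, 541, 581 and 628 CPM with siNS and 762, 737, 707 and 731 CPM with siYES1, with no overlap. On the log2 scale it rose by 0.38 ± 0.08 (edgeR adjusted p = 0.00151), larger than that of 56.3% of tested genes, and by 0.21 with total counts (adjusted p = 0.0197). In MDA-MB-231 it was at 146, 141, 148 and 138 CPM with siNS and 135.5, 130.2, 121 and 129 CPM with siYES1. Although no library overlapped there either, the change of -0.15 ± 0.07 was not called (edgeR adjusted p = 0.0658). It was called with total counts (-0.20, adjusted p = 0.021) and in the joint fit of all 16 libraries (-0.21, adjusted p = 0.0263).

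In SUM159PT the siNS replicate 1 was the lowest of its group for FOSB, FOSL2, JUN, JUND, ATF3 and MYC and the highest for FOS and EGR1. Without it every member called in SUM159PT was still called in the same direction. EGR1 then changed by -2.30, FOS by -1.98, FOSB by -0.90, FOSL1 by 0.84, FOSL2 by 0.49, ATF3 by 0.49, JUN by 0.48 and MYC by 0.32 on the log2 scale.

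**Figure D2:**
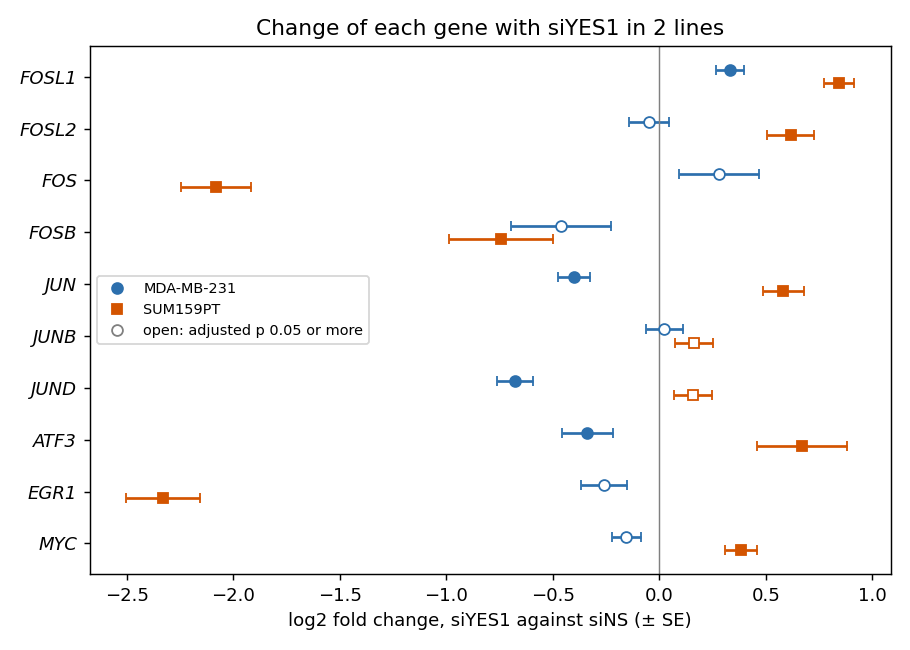
Log2 fold change of siYES1 against siNS (horizontal axis, ± SE) for each gene, circles for MDA-MB-231 and squares for SUM159PT, filled where the edgeR adjusted p was under 0.05. EGR1 and FOS reach -2.33 and -2.08 in SUM159PT. In MDA-MB-231 they lie at -0.26 and 0.28, neither called. JUN and ATF3 lie on opposite sides of 0.

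The difference of the siYES1 effect between the lines was tested as an interaction over all 16 libraries. It passed for 8 of 10 members, 6 with a higher value in SUM159PT and 2 with a lower one. Among all 16299 genes tested 24.3% passed, 15.4% higher and 8.85% lower. Scaling moved the split over all genes, from 2511 higher and 1442 lower to 1375 and 2795 with total counts and to 1840 and 1913 with factors set within each line, while the members' counts of 6 and 2 were the same under every alternative run. FOS and EGR1 differed by -2.26 ± 0.25 (edgeR adjusted p = 7.28e-07) and -1.97 ± 0.21 (edgeR adjusted p = 6.31e-07), the effect being lower in SUM159PT. JUN, ATF3 and JUND differed by 1.08 ± 0.13 (edgeR adjusted p = 2.34e-06), 1.10 ± 0.26 (edgeR adjusted p = 0.00385) and 0.93 ± 0.13 (edgeR adjusted p = 1.35e-05). For FOSL2, MYC and FOSL1 the differences were 0.76 (edgeR adjusted p = 0.00108), 0.64 (8.24e-05) and 0.61 (6.18e-05). FOSL1 thus rose in both lines and by more in SUM159PT. With total counts the differences of FOSL1 and MYC were smaller, at 0.39 (adjusted p = 0.00358) and 0.42 (adjusted p = 0.0029). No difference was called for JUNB (0.24 ± 0.13, edgeR adjusted p = 0.189) or FOSB (-0.18 ± 0.36, edgeR adjusted p = 0.771). Each line was cultured and tabled separately, so line and culture cannot be told apart.

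The siNS libraries show how the lines differed without the knockdown. All 10 members were called, 8 higher and 2 lower in SUM159PT, where 73.8% of 15411 tested genes were called, 36.3% higher and 37.6% lower. MYC was at 142 ± 4.46 CPM in MDA-MB-231 and 614 ± 58.8 CPM in SUM159PT on a scale common to both lines (mean ± SD, n = 4), a log2 difference of 2.12 ± 0.10 (edgeR adjusted p = 7.04e-11). FOS was at 2.82 ± 0.53 and 18.7 ± 3.05 CPM, a difference of 2.73 ± 0.20 (edgeR adjusted p = 9.65e-09), and EGR1 at 17.2 ± 1.95 and 38.1 ± 2.60 CPM, a difference of 1.15. EGR1 and FOS were thus higher under siNS in the line where they were called lower with siYES1. FOSL1 was lower in SUM159PT, at 140 ± 8.25 against 394 ± 18.2 CPM (-1.49 ± 0.09, edgeR adjusted p = 1.71e-09), and JUND was lower by 0.73. JUNB was higher in SUM159PT by 1.56, FOSB by 1.29, ATF3 by 0.91 and FOSL2 by 0.61, while JUN differed by only 0.27 (edgeR adjusted p = 0.047), a call lost in 9 of its 15 alternatives.

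Exon length here counts every annotated exon base of a gene, 1820 for JUNB and 7157 for FOSL2. The order of genes, and the shares and family sums below, therefore depend on that annotation. Per exon length, FOSL1 led the members in MDA-MB-231 with siNS, at 211 ± 9.82 FPKM (mean ± SD, n = 4). JUND at 103 and JUN at 84.2 FPKM followed and overlapped each other, then MYC at 47.8 and FOSL2 at 42.6, which also overlapped, and JUNB at 28.95. EGR1, ATF3, FOS and FOSB were at 5.55, 3.48, 0.88 and 0.51 FPKM, the last pair overlapping. In SUM159PT with siNS the order was MYC at 188 ± 18.1, JUN at 91.9, JUNB at 76.9, FOSL1 at 67.9, FOSL2 at 59.05 and JUND at 56.4 FPKM. There JUN overlapped JUNB, FOSL1 overlapped FOSL2 and FOSL2 overlapped JUND. EGR1 at 11.1, ATF3 at 5.91, FOS at 5.30 and FOSB at 1.123 FPKM came last, ATF3 overlapping FOS. With siYES1 FOSL1 moved above JUNB in SUM159PT, at 122 ± 4.58 against 86.2 ± 9.41 FPKM without overlap, and ATF3 at 9.41 FPKM moved above EGR1 at 2.21.

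The make-up of the AP-1 transcripts was described as each gene's share of the summed FPKM of the 8 AP-1 genes within a library, which does not depend on scaling between libraries. The share of FOSL1 was higher with siYES1 in both lines, at 44.5% ± 2.70 and 56.7% ± 1.504 in MDA-MB-231 (mean ± SD, n = 4) and 18.7% ± 2.06 and 23.9% ± 0.46 in SUM159PT. No siYES1 library overlapped siNS in either line for this share. In MDA-MB-231 JUND went from 21.7% ± 1.45 to 13.8% ± 0.76 and JUN from 17.7% ± 1.18 to 13.6% ± 0.52, again with no overlap. JUNB, at 6.08% and 6.26%, and FOSL2, at 8.97% and 8.79%, overlapped there. In SUM159PT FOS went from 1.47% ± 0.37 to 0.25% ± 0.02, JUNB from 21.2% to 16.9% and JUND from 15.5% to 12.3%, each without overlap. The levels of JUNB and JUND did not fall there (log2 fold changes of 0.16 and 0.16, not called), and a share also drops when other members rise. JUN, at 25.1% and 27.0%, and FOSL2, at 16.1% and 17.8%, overlapped between the groups in that line.

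**Figure D3:**
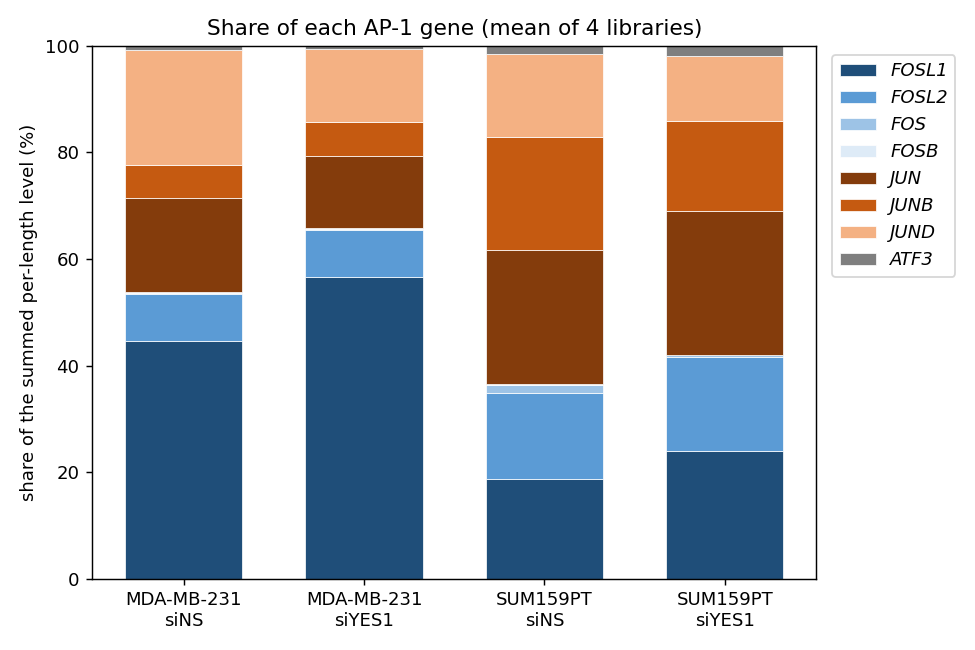
Mean share of each of 8 AP-1 genes in their summed per-length level (vertical axis, percent) in the 4 groups, each bar the mean of 4 libraries. FOSL1 fills 44.5% with siNS and 56.7% with siYES1 in MDA-MB-231, against 18.7% and 23.9% in SUM159PT, where JUN and JUNB take larger shares.

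Summed by family, the FOS genes went from 256 ± 5.86 to 309 ± 7.12 FPKM in MDA-MB-231 and the JUN genes from 217 ± 20.4 to 158 ± 4.52 FPKM. The FOS sum was almost all FOSL1 and FOSL2. In SUM159PT the FOS genes went from 133 ± 8.47 to 214 ± 4.57 FPKM and the JUN genes from 225 ± 18.4 to 287 ± 21.4 FPKM. Over all 8 genes the sum was 475.5 ± 24.7 and 469.7 ± 2.92 FPKM in MDA-MB-231, with overlap, and 364.5 ± 28.5 and 510.6 ± 25.9 FPKM in SUM159PT, without. These sums were not tested.

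Partners that can replace FOS or JUN in the dimer, and the related ATF, CREB and MAF factors, were called higher in SUM159PT for 11 of 21 tested and lower for 1, where 17.7% of all genes were higher and 19% lower. Their median log2 fold change was 0.31, against -0.03 over all genes. This list and those below were chosen with earlier results of these data known, so their counts are not independent of the data. DDIT3, a stress factor also called CHOP, rose by 0.96 ± 0.32 (51.37 to 100.02 CPM), CREB5 by 0.83 ± 0.14 (64.2 to 114 CPM), and the small MAF factors MAFG and MAFK by 0.75 and 0.74. The DDIT3 groups overlapped (edgeR adjusted p = 0.0334). In MDA-MB-231 3 of 22 rose and 3 fell, with a median of -0.09, where 24.9% of all genes were higher and 27.5% lower. ATF5 rose by 0.58 ± 0.09, ATF4, the integrated stress factor, by 0.34 ± 0.08 and MAFG by 0.27, while BATF fell by 0.60 ± 0.18 (6.45 to 4.24 CPM). The MAFG groups overlapped in this line (edgeR adjusted p = 0.0381).

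Among 4 tested genes of the EGR family and its NAB corepressors, which bind EGR1 and hold it back, the NAB genes moved alike in both lines. NAB2, itself an EGR1 target, fell by 1.02 ± 0.12 in MDA-MB-231 (21.0 to 10.35 CPM) and by 0.60 ± 0.14 in SUM159PT (42.3 to 28.0 CPM). NAB1 rose by 0.35 ± 0.09 and 0.48 ± 0.08. Besides these, EGR3 fell in SUM159PT (log2 fold change -1.42), a gene named after its values were seen, and EGR2 was called in neither line.

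The other immediate early genes did not follow EGR1 and FOS as a group. Of 20 tested in SUM159PT 7 fell and 7 rose, against 19% and 17.7% of all genes, with a median of 0.09 against -0.03. NR4A2, an orphan nuclear receptor, fell by 1.26 ± 0.22 (9.20 to 3.83 CPM), IER5L by 1.22 ± 0.21, the antiproliferative BTG2 by 1.03 ± 0.15 (17.9 to 8.80 CPM) and CTGF, a matricellular protein and YAP target, by 0.96 ± 0.31. The CTGF groups overlapped in SUM159PT (edgeR adjusted p = 0.0295). In MDA-MB-231 8 of 20 rose and 4 fell, against 24.9% and 27.5% of all genes, with a median of 0.12 against 0.00. TRIB1, a pseudokinase, fell by 0.99 ± 0.11, while KLF4 rose by 0.80 ± 0.08 (52.9 to 91.8 CPM), CTGF by 0.64 ± 0.07 (172 to 268.5 CPM) and the kinase SGK1 by 0.55. The effect differed between lines for TRIB1 (1.70), KLF4 (-1.59) and CTGF (-1.50; edgeR adjusted p = 2.23e-06, 2.67e-07 and 0.00232).

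Kinases and factors upstream of these genes, from RAS to the MAP kinases, included some that changed in the same direction in both lines. Of 26 tested in each line, 7 rose and 5 fell in MDA-MB-231 and 7 rose and 3 fell in SUM159PT, with medians of 0.10 and 0.12. These counts are near the background of 52.4% and 36.8% of all genes called. The kinase BRAF rose by 0.49 ± 0.11 (24.4 to 34.2 CPM) in MDA-MB-231 and by 0.62 ± 0.11 (32.7 to 50.25 CPM) in SUM159PT. MAPK3, which encodes ERK1, fell by 0.80 ± 0.09 (57.0 to 32.7 CPM) and 0.54 ± 0.11 (44.1 to 30.3 CPM). NRAS fell by 0.80 ± 0.08 in MDA-MB-231 (172 to 98.75 CPM), and MAPK8, which encodes the kinase JNK1, rose by 0.47 ± 0.09 in SUM159PT.

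Of 14 tested genes that govern the turnover of these proteins and messages, 6 rose and 2 fell in MDA-MB-231 and 4 rose and 2 fell in SUM159PT, with medians of 0.12 and 0.05. Here too the counts are near the 52.4% and 36.8% of all genes called. AURKA, a mitotic kinase that also stabilises MYC proteins, rose by 0.89 ± 0.08 and 1.06 ± 0.11. ZFP36L2, which promotes decay of AU-rich messages, rose by 0.65 ± 0.08 in MDA-MB-231 and fell by 0.71 ± 0.12 in SUM159PT, a difference of -1.26 ± 0.15 (edgeR adjusted p = 3.28e-06). Its relative ZFP36L1 fell by 0.81 ± 0.07 in MDA-MB-231, as did HNRNPD, the AU-binding protein AUF1, by 0.64 ± 0.10. USP36, a deubiquitinase of MYC, rose by 0.57 ± 0.07 in SUM159PT and the JUN ligase ITCH by 0.43 ± 0.08.

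Known AP-1 target genes fell more often than they rose in MDA-MB-231. Of 21 tested there, 12 fell and 3 rose, with a median of -0.39 against 0.00 over all genes, of which 27.5% fell. IL6, an inflammatory cytokine, fell by 2.88 ± 0.13 (28.1 to 3.83 CPM), IL11 by 1.75 ± 0.10 (30.25 to 8.97 CPM), the collagenase MMP1 by 1.18 ± 0.12 (58.8 to 25.9 CPM) and the membrane protease MMP14 by 1.10 ± 0.07 (1323 to 617.5 CPM). In SUM159PT 7 of 21 fell and 8 rose, against 19% and 17.7% of all genes, with a median of -0.01. IL6 fell there by 1.64 ± 0.24 (8.41 to 2.69 CPM), the urokinase gene PLAU by 1.246 ± 0.11 (54.05 to 22.8 CPM) and cyclin D1 (CCND1) by 0.80 ± 0.07 (720 to 413 CPM).

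Known MYC target genes rose more often than they fell in MDA-MB-231, where MYC itself was not called. Of 23 tested there, 11 rose and 2 fell, with a median of 0.25 against 0.00 over all genes, of which 24.9% rose. DKC1, which modifies ribosomal RNA, rose by 1.20 ± 0.07 (78.5 to 181 CPM), the G1 kinase CDK4 by 0.91 ± 0.08 (61.9 to 116 CPM), the cell cycle phosphatase CDC25A by 0.91 ± 0.07 and RRS1, a factor of ribosome assembly, by 0.70 ± 0.10. In SUM159PT, where MYC rose, 6 of 21 rose and 1 fell, against 17.7% and 19% of all genes, with a median of 0.17 against -0.03. DKC1 rose there by 0.55 ± 0.15, CDK4 by 0.42 ± 0.10 and GNL3, the nucleolar protein nucleostemin, by 0.37 ± 0.08, while SHMT1, an enzyme of the folate cycle, fell by 0.60 ± 0.18 (12.5 to 8.24 CPM). The DKC1 groups overlapped in this line (edgeR adjusted p = 0.0108).

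In the MYC network, the partners and rivals of MYC for MAX, 2 of 13 rose and 4 fell in MDA-MB-231, with a median of 0.00, and 1 rose and 1 fell in SUM159PT, with a median of 0.07. Of all genes 52.4% and 36.8% were called, so the count is near the background in MDA-MB-231 and below it in SUM159PT. MXD4, which pairs with MAX and represses E-box genes, fell in both lines, by 1.23 ± 0.09 (150.2 to 64.25 CPM) and 0.71 ± 0.07 (271 to 165.5 CPM). MXI1, of the same kind, fell by 1.06 ± 0.10 in MDA-MB-231 (22.4 to 10.7 CPM), and its effect differed between lines by 1.41 ± 0.19 (edgeR adjusted p = 1.36e-05). MXD3 rose by 0.81 ± 0.14 and MLX by 0.44 ± 0.08 in MDA-MB-231, and MYCBP2 by 0.25 ± 0.09 in SUM159PT.

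**Figure D4:**
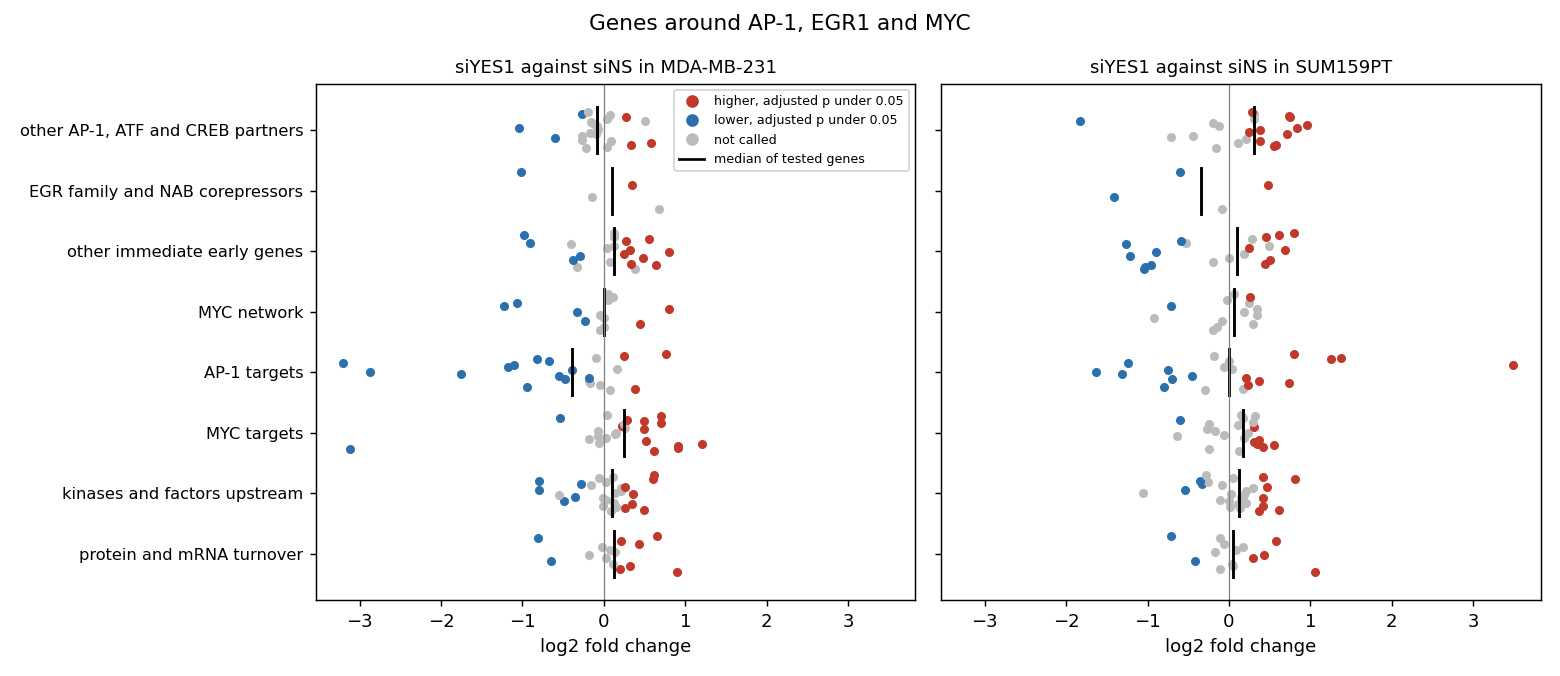
Log2 fold change of siYES1 against siNS (horizontal axis) for every tested gene of 8 lists around the 10 genes, MDA-MB-231 on the left and SUM159PT on the right; red points rose, blue points fell and grey points were not called, and black bars mark medians. The median of AP-1 targets is -0.39 in MDA-MB-231 and -0.01 in SUM159PT; that of the other AP-1, ATF and CREB partners -0.09 and 0.31.

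Genes with the pattern most like FOSL1, EGR1 and MYC were sought by Pearson's r of log2 CPM over the 16 libraries, each line's mean taken off, among 11457 coding genes tested in both lines. The libraries share the siYES1 contrast, so any gene that responds in the same proportions scores high, and r is a description. For FOSL1 they were TPD52L2 (r = 0.983), HSPA9 (0.977) and MORF4L1 (0.976). TPD52L2 changed by 0.50 in MDA-MB-231 and 1.03 in SUM159PT. For EGR1 they were CCDC102A (r = 0.983), CITED4 (0.976) and FCGRT (0.970), and FCGRT changed by -0.73 and -3.24. Within MDA-MB-231 their r was 0.695, 0.656 and 0.615, against 0.989, 0.990 and 0.988 within SUM159PT, and CCDC102A changed by only -0.05 in MDA-MB-231. For MYC they were SPRYD3 (r = 0.947), TNC (0.943) and ACACA (0.938). TNC, the matrix protein tenascin-C, changed by -0.25 and 0.77.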

How the data were processed

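The authors deposited raw integer counts per gene, with 1 table for each line. The submitters' processing notes name hg38, HISAT2 2.0.5 and featureCounts 1.5.0-p3. Neither annotation release nor strand setting is given in the sources used here, which leaves overlaps such as JUNB with HOOK2 uncertain. Messenger RNA was selected on poly-T beads, per the labels' protocols. All 58735 gene IDs matched GENCODE 29, which gave symbols, coordinates and exon lengths.

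In R 4.3.3, edgeR 4.0.16 fitted each line on its 8 libraries, using TMM factors, filterByExpr, the quasi-likelihood F test and Benjamini-Hochberg adjustment over all genes, with calls at an adjusted p under 0.05. The line difference was the interaction over 16 libraries, scaled together, so it need not equal the difference of the per-line values. Alternatives were RLE or total-count scaling, no filter, a filter at 1 CPM, DESeq2 1.42.0, limma-voom 3.58.1, a replicate block, a joint fit, factors set within each line and leaving out each library. Scripts were tested on simulated data.

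All 10 members are described. From each list at most 4 genes per line are named, those called at 5 CPM or more with the largest change; some of these are not reported here. For likeness, 3 genes were named for each of 3 members. Members and lists were chosen with earlier results of these data known.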

Additional observations from a re-analysis of the deposited data

Results flagged for a closer look

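Within groups of 4 libraries, 40 groups of member levels were examined for a library far from the other 3, and 3 were found; chance flags about 1 in 20 groups. FOS in SUM159PT with siYES1 had replicate 2 lowest at 3.75 CPM. FOSB in MDA-MB-231 with siNS had replicate 3 highest at 4.24 CPM. FOSL1 in MDA-MB-231 with siYES1 had replicate 4 highest at 526.5 CPM.

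The siYES1 effect differed between the lines by the interaction test for 8 genes, given as the SUM159PT effect minus the MDA-MB-231 effect on the log2 scale. It was lower in SUM159PT for FOS (-2.26, edgeR adjusted p = 7.28e-07) and EGR1 (-1.97, edgeR adjusted p = 6.31e-07). It was higher for ATF3 (1.10, edgeR adjusted p = 0.00385), JUN (1.08, edgeR adjusted p = 2.34e-06), JUND (0.93, edgeR adjusted p = 1.35e-05), FOSL2 (0.76, edgeR adjusted p = 0.00108), MYC (0.64, edgeR adjusted p = 8.24e-05) and FOSL1 (0.61, edgeR adjusted p = 6.18e-05).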

How the results depend on the processing

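Of 30 member results called, 26 kept their call and direction under every alternative run; the exceptions were ATF3 in each line, FOSB in SUM159PT and JUN between siNS groups. Over 710 alternatives of 40 results, 674 stayed on the same side, 25 lost a call, 5 gained one and 6 reversed, all uncalled: JUNB in MDA-MB-231 (-0.0203 with total counts, -0.0299 in the joint fit, -0.0393 without siNS replicate 1; leaving out libraries gave -0.0393 to 0.0811), FOSL2 there (0.0272 without siNS replicate 3; range -0.133 to 0.0272), and in SUM159PT JUNB (-0.00548) and JUND (-0.0123) with total counts. With total counts 5 members were lower in MDA-MB-231 in place of 3, EGR1 and MYC being added; leaving out libraries gave 2 to 4. The cause was not tested. With the replicate block all 40 results stayed the same, for example -2.35 for EGR1 in SUM159PT; same-numbered libraries did not vary together (correlations of -0.12 to 0.09). FOS and FOSB in MDA-MB-231 rest on 28 to 74 counts per library, so small changes there were not detectable.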
